A study of Caenorhabditis elegans with 2 samples.

Results

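The aminoacyl-tRNA synthetases and the mitochondrial ribosomal proteins are 2 families of the translation machinery, and their genes were examined in a ChIP-seq map of the nuclear hormone receptor FAX-1 in Caenorhabditis elegans embryos. Members were chosen by gene symbol: 31 synthetase genes, whose symbol is 1 letter followed by ars-1 or ars-2, and 70 genes whose symbol is mrpl- or mrps- plus a number, some with a letter after it, such as mrps-18A. Together they are 101 of the 19985 protein-coding genes of the annotation. The synthetase gene fars-3 fell outside the rule, and no candidate peak was assigned to it. Both libraries of the series, biological replicates 1 and 2, form 1 group: whole hermaphrodite late embryos of the strain OP164, collected 4 h after synchronization by egg bleaching and stably carrying FAX-1 with a C-terminal GFP-FLAG tag. Sonicated chromatin was precipitated with an antibody against GFP. Both libraries carried the transgene, and no untagged strain was analysed here. In whole embryos, binding in few cells cannot be told apart from weak binding in many.

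Aminoacyl-tRNA synthetases attach each amino acid to its tRNA, and so supply both cytosolic and mitochondrial ribosomes. Mitochondrial ribosomal proteins are made in the cytosol from nuclear genes and imported, and they build the large (mrpl) and small (mrps) subunits of the ribosome that translates the few proteins encoded in mitochondrial DNA. FAX-1 is known for its part in the identity and axon guidance of a small set of interneurons, whereas these 2 families are used in all cells. Many C. elegans genes lie close behind another gene on the same strand, some of them in operons, so that the promoter can be far from the annotated 5′ end.

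The pooled replicates gave 13841 candidate peaks, which merged into 12704 regions. The final list of the authors, filtered for reproducibility, held 830 peaks, or 796 merged regions, whose lowest signal was 98.3; exactly 830 pooled peaks reached that value. Signal is the deposited enrichment value of a peak, given here in the units of the peak caller. A region was assigned to a member if, among all protein-coding 5′ ends, the member's was closest to its summit and at most 5000 bp away. Read depth is unknown, and intervals are 95% Wilson intervals that cover counting error only.

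In all, 62 candidate regions were assigned to 51 of the 101 members (50.5%, beside 38.4% of all protein-coding genes), and 7 of these regions, at 7 genes, were final. Among the synthetases, ears-2, kars-1, mars-1 and yars-2 had a final region (4 of 31 genes, 12.9%, interval 5.13 to 28.9%). Among the mitochondrial ribosomal protein genes, mrpl-23, mrps-35 and mrpl-15 had one (3 of 70, 4.29%, interval 1.47 to 11.9%). The share over all protein-coding genes was 3.50%, which lies inside the interval of the mitochondrial ribosomal proteins and below that of the synthetases. The intervals of the families overlap, and no test was made over genes, which are not replicates. Of the member regions, 11.3% were final, against 6.59% of the 10969 nuclear candidate regions assigned to any gene.

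The sequences at the summits are shown for the 5 final regions on chromosomes II, IV and V, so that the letters under 5 of the 7 final member summits can be read beside their signals. Each line gives the 151 bases centred on the summit, from the RefSeq genome sequence of the WBcel235 assembly (ce11), on the strand of the member gene. Capitals mark matches, on either strand, to 1 of the fixed words or to CGCGC, which was searched after the sequences had been seen.
ears-2, minus strand, chrIV:390427-390577: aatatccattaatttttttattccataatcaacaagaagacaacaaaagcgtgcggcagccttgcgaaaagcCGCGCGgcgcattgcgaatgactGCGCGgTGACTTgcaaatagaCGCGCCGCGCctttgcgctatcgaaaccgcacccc
kars-1, minus strand, chrII:7072711-7072861: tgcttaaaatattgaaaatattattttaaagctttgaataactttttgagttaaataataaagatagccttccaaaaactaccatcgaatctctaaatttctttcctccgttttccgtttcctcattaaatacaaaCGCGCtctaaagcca
mars-1, minus strand, chrIV:11635759-11635909: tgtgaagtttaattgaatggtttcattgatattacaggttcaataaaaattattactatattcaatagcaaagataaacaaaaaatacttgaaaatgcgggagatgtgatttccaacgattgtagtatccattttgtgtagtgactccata
yars-2, minus strand, chrIV:4712572-4712722: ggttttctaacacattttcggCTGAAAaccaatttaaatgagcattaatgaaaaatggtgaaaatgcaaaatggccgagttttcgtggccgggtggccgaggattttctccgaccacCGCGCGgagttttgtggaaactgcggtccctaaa
mrps-35, plus strand, chrV:18981117-18981267: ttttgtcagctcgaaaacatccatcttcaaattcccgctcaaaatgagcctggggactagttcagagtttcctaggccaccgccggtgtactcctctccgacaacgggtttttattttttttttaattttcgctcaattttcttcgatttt

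The windows differed in composition. G and C made up 51.0% of the window at ears-2 and 45.7% at yars-2, but 29.1% at kars-1 and 28.5% at mars-1, against medians of 47.0% over all 783 final nuclear regions and 39.7% over the 11908 other nuclear candidates. At ears-2, CGCGC matched at 5 positions, at yars-2 at 2 and at kars-1 at 1, and it was absent from the windows of mars-1 and mrps-35. Over the 7 final member regions it was in 4 windows, beside 36.8% of all final and 14.1% of the other nuclear candidates. The word was chosen after these windows were seen, which shapes that count. Over all member windows it was in 3 of 24 at synthetases (12.5%) and 8 of 38 at mitochondrial ribosomal protein genes (21.1%). The element AAGTCA, recognised by receptors of the FAX-1 class, was found once, at ears-2, where it stands on the strand opposite to the one shown. It was in 5 of the 24 synthetase windows and in 1 of the 38 mitochondrial ribosomal protein windows, beside 3.32% of all final and 5.17% of other windows. The other 4 synthetase windows with it belonged to regions that were not final.

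Among the other fixed words, the simple repeat GAGAGA was in 2 of 24 synthetase and 4 of 38 mitochondrial ribosomal protein windows, beside 24.9% of all final and 16.6% of other windows. Of the final member regions only that of mrpl-15 held it. The word TTTCAG, which resembles the end of a C. elegans splice acceptor, was in 7 synthetase and 5 mitochondrial ribosomal protein windows (29.2% and 13.2%), beside 11.6% of all final and 19.3% of other windows. In the yars-2 window it stands on the other strand. The nuclear receptor element AGGTCA was in 0 synthetase and 2 mitochondrial ribosomal protein windows, beside 4.98% of all final and 4.07% of other windows. The longer AAAGTCA, which contains AAGTCA, was in 2 and 1, beside 1.53% and 2.23%. TGATAA, a word of GATA factors, was in 3 and 6, beside 4.47% and 9.57%. The homeodomain word TAATTA was in 1 and 8, beside 4.34% and 8.30%. The B-box sequence of tRNA genes, an internal promoter element of RNA polymerase III, was in 0 of the 62 member windows. It was in 7.28% of all final and 0.403% of other windows, and 55 of the 62 member regions were not final.

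The synthetase gene with the strongest region was ears-2 (WBGene00001338, chrIV:388686-390468, minus strand), which encodes a glutamyl-tRNA synthetase. Its region, at chrIV:390307-390661, had a pooled signal of 672.5, and 448.8 and 223.8 in replicates 1 and 2. It ranked 10 in the pooled list, 10 in replicate 1 and 14 in replicate 2. The summit lay between genes, 34 bp upstream of ears-2 and 58 bp from the start of uncp-18, which is transcribed in the opposite direction, so that the region covers the start of both genes and proximity alone barely separates them.

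The next synthetase regions were those of kars-1 and mars-1, which encode the lysyl- and methionyl-tRNA synthetases. At kars-1 (WBGene00002238) the region chrII:7072568-7073203 had a signal of 236.5, with 157.0 in replicate 1 and 80.5 in replicate 2. At mars-1 (WBGene00003415) the region chrIV:11635616-11636250 had a signal of 186.8, with 120.4 and 65.4 in replicates 1 and 2. Each was merged from 2 overlapping peaks, and their summits were intergenic, 371 bp upstream of kars-1 and 347 bp upstream of mars-1. No other protein-coding start was within 500 bp of either summit. They ranked 141 and 244 in replicate 1, and 174 and 247 in replicate 2, so both replicates placed them well inside their 830 strongest peaks.

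The weakest final synthetase region was at yars-2 (WBGene00006968), the gene of a tyrosyl-tRNA synthetase. Here chrIV:4712429-4712864 had a signal of 113.8, with 70.2 in replicate 1, where it ranked 683, and 42.6 in replicate 2, where it ranked 624. The summit was 23 bp upstream of the annotated 5′ end, in the 201 bp between yars-2 and miro-1, a gene on the same strand that encodes a mitochondrial GTPase. The region thus lies both at the start of yars-2 and downstream of miro-1.

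For the mitochondrial ribosome, the strongest region was assigned to mrpl-23 (WBGene00020348), with a signal of 204.6, and 121.8 and 82.6 in replicates 1 and 2. It ranked 233 and 164 there. This region, chrI:6212621-6213056, has an uncertain assignment. Its summit lay 954 bp upstream of mrpl-23, within an intron of fars-1, a gene of a phenylalanyl-tRNA synthetase subunit. The fars-1 gene ends 96 bp before mrpl-23 on the same strand. The region also had its summit 15 bp from the snoRNA gene T08B2.13. It was the 1 member region of 62 (1.61%) with its summit within 500 bp of a tRNA, snRNA, snoRNA or rRNA gene. The share over all assigned nuclear regions was 3.92%. Among final regions it was 1 of 7 (14.3%), beside 26.1% of all final regions assigned to genes.

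At mrps-35 (WBGene00012697) the replicates differed most among the final regions. The region chrV:18980974-18981612 had a pooled signal of 173.6, with 137.1 in replicate 1 and 36.7 in replicate 2, where it ranked 182 and 887. It was thus among the 830 strongest peaks of replicate 1 only. Its summit was 114 bp upstream of mrps-35 in the 5′ UTR of sws-1, a gene on the opposite strand whose body overlaps the start of mrps-35. With the starts of all transcripts in place of 1 start a gene, the summit was no longer assigned to mrps-35. The region of mrpl-15 (WBGene00022373), chrI:1435448-1435883, had a signal of 112.0, with 65.6 and 46.7 in replicates 1 and 2 and ranks of 799 and 536. Its summit was intergenic, 613 bp upstream, and no other protein-coding start lay within 2000 bp.

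**Figure D1:**
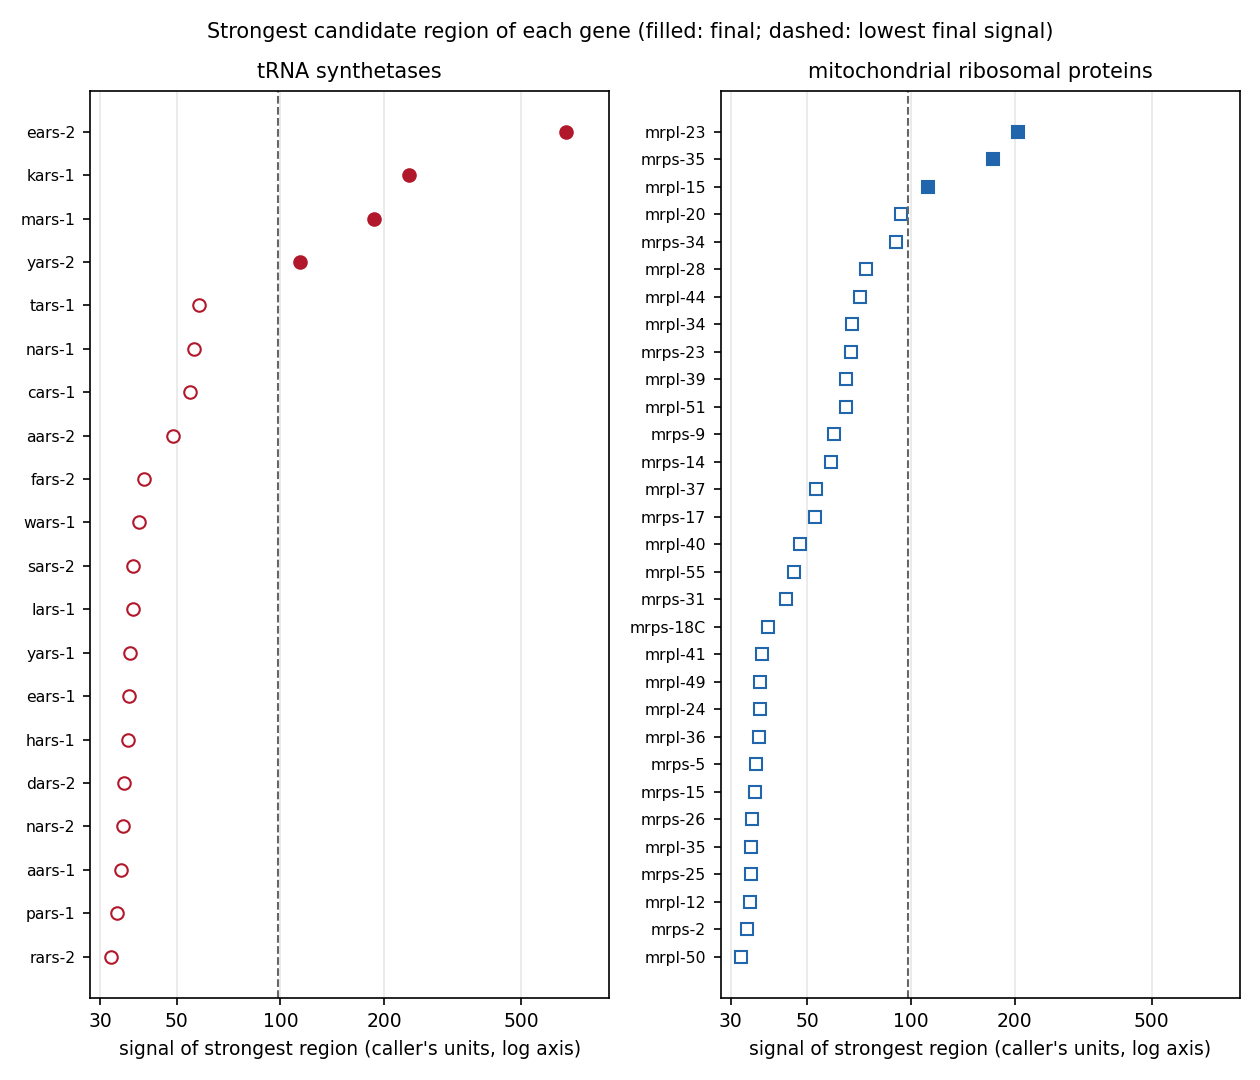
Signal of the strongest candidate region of each gene with one, on a log axis in the units of the peak caller, for synthetases (left) and mitochondrial ribosomal proteins (right). Filled symbols are final regions and the dashed line is the lowest final signal, 98.3; 4 synthetases lie above it with a gap down to tars-1 at 58.1, whereas mrpl-20 (93.6) and mrps-34 (90.2) lie close below it.

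No synthetase came close below the final list. The other 16 synthetases with a candidate had top signals between 32.2 and 58.1, with a median of 37.0. The highest were tars-1 (58.1), nars-1 (56.0), cars-1 (54.6), aars-2 (48.7) and fars-2 (40.2), for threonine, asparagine, cysteine, alanine and phenylalanine. None of these 5 summits was within 500 bp of the gene's start: they lay 947 and 2239 bp downstream of tars-1 and nars-1, and 1023, 850 and 2787 bp upstream of cars-1, aars-2 and fars-2. In the replicates their ranks were between 1596 and 9109, and nars-1 and fars-2 had no overlapping peak in replicate 2. The synthetase signals thus left a gap between 58.1 and 113.8, in which no member of that family fell.

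The other 28 mitochondrial ribosomal protein genes with a candidate had top signals between 32.2 and 93.6, with a median of 44.6. The region of mrpl-20 came nearest to the final list at 93.6, with 55.6 in replicate 1 and 37.6 in replicate 2 and ranks of 1108 and 844. Its summit was 2744 bp upstream of the gene. For mrps-34 the signal was 90.2, with 53.8 and 29.7 in replicates 1 and 2, and the summit was 95 bp upstream. Then came mrpl-28 (73.9), mrpl-44 (71.2) and mrpl-34 (67.4), with summits 122, 172 and 147 bp upstream. The mrpl-44 summit was equally far from the start of mccc-2, so that its assignment is arbitrary. At mrpl-44 the replicates also stood far apart, with ranks of 1099 in replicate 1 and 10987 in replicate 2.

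Over the genes with any candidate, the median top signal was 38.1 for the 20 synthetases and 47.8 for the 31 mitochondrial ribosomal proteins, beside 43.2 for all 7678 protein-coding genes with one. A candidate of any strength was assigned to 64.5% of the synthetases (interval 46.9 to 78.9%) and to 44.3% of the mitochondrial ribosomal proteins (interval 33.2 to 55.9%), beside 38.4% of all protein-coding genes. The synthetases thus had the larger share of final genes and the lower median, an order of medians that turned round when every gene start within 500 bp of a summit was counted. Within the synthetases, 2 of the 20 genes numbered 1 and 2 of the 11 numbered 2 had a final region. Within the mitochondrial ribosome, 2 of 41 large-subunit and 1 of 29 small-subunit genes had one.

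Of the 38 regions at mitochondrial ribosomal protein genes, 17 had their summit within 500 bp of the start, and 15 of these 17 were upstream (88.2%). All 15 lay between 27 bp (mrps-15) and 172 bp (mrpl-44) from the start. Of the 24 synthetase regions, 9 were within 500 bp, 6 of them upstream, and of these 6, at ears-2, yars-2, hars-1, lars-1, mars-1 and kars-1, 3 were within 200 bp. Over all assigned nuclear regions, 31.5% were within 500 bp of the start, and 64.7% of these were upstream. Over all genes, 51.2% of regions at most 500 bp upstream were within 200 bp. The limit of 200 bp was chosen after the distances were seen. Of the 17 regions within 500 bp of a mitochondrial ribosomal protein gene 1 was final, and their median signal was 58.6. At the synthetases 4 of the 9 near a start were final, with a median signal of 37.2 over the 9. Over all genes, 11.6% of regions within 500 bp were final, with a median of 44.4.

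**Figure D2:**
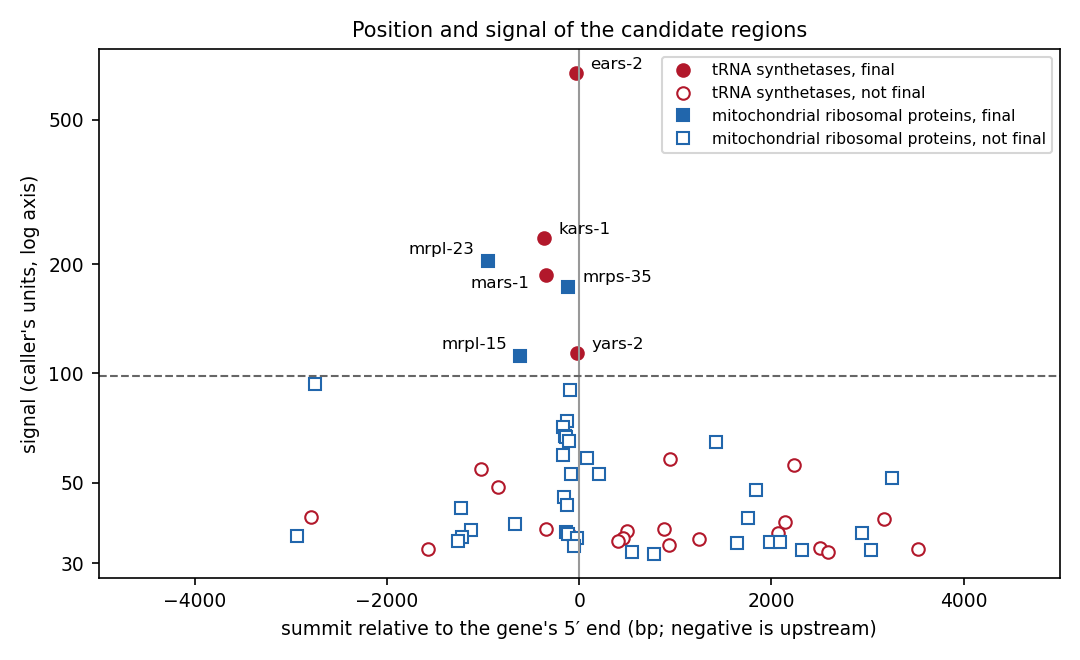
Signal of the 62 candidate regions (log axis, units of the peak caller) against the distance of the summit from the 5′ end of the assigned gene in bp, negative upstream. All 7 final regions lie upstream, and 15 regions of mitochondrial ribosomal protein genes stand in a narrow column 27 to 172 bp upstream.

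All 7 final regions were upstream of the member, 5 of them within 500 bp, beside 71.8% of all final regions assigned to genes being upstream. Of the 55 others, 27 were upstream. In coding exons lay 0 of the 7 final member summits, beside 1.24% of all final regions assigned to genes. Of all 62 member summits 10 were in coding exons (16.1%), such as that of mrpl-37 with a signal of 52.9, beside 18.1% of all assigned nuclear regions. Between genes lay 10 of the 24 synthetase (41.7%) and 19 of the 38 mitochondrial ribosomal protein summits (50%), beside 45.5% of all assigned nuclear regions. In introns lay 9 (37.5%) and 10 (26.3%), beside 29.4%. Some of those introns belong to other genes, as at mrps-23, where the summit was within prp-40, a gene of a splicing factor. The tars-1 summit lay in an intron within the bodies of both kel-1 and tars-1, which overlap.

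In replicate 1 the final regions ranked 799 or better and the others 1099 or worse. In replicate 2 the order crossed, since mrpl-20, which was not final, ranked 844 and the final region of mrps-35 ranked 887. The 15446 peaks of replicate 1 and the 18555 of replicate 2 have different lowest signals, 21.0 and 12.7, so ranks were compared rather than signals. By gene, 4 synthetases had a region among the 830 strongest peaks of replicate 1, and 4 in replicate 2. For mitochondrial ribosomal proteins these counts were 3 in replicate 1 and 2 in replicate 2, where mrps-35 was absent. The shares over all protein-coding genes were 3.52% and 3.42%. Every member in these counts also had a final region. All 7 final regions overlapped a peak in both replicates, as did all 723 final regions assigned to any nuclear gene. Of the member regions that were not final, 4 of the 20 at synthetases and 21 of the 35 at mitochondrial ribosomal protein genes did. Counting final ones, 8 of 24 synthetase regions (33.3%) and 24 of 38 mitochondrial ribosomal protein regions (63.2%) were found in both, beside 50.1% of all assigned nuclear regions. Synthetase regions in 1 replicate numbered 11 in replicate 1 and 5 in replicate 2, and mitochondrial ribosomal protein regions 7 in each.

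**Figure D3:**
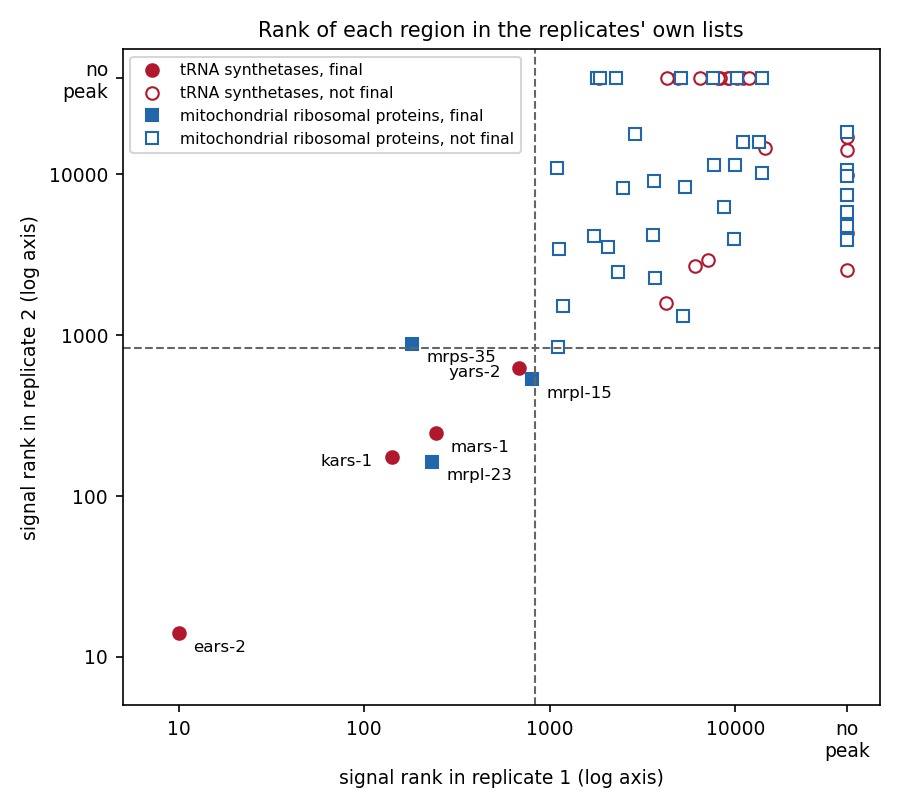
Signal rank of each of the 62 regions in replicate 1 and in replicate 2 (log axes, rank 1 strongest), with regions lacking an overlapping peak drawn at "no peak"; dashed lines mark rank 830. Of the 7 final regions, 6 lie within both lines and mrps-35 lies beyond the line of replicate 2.

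Some members without an assigned final region still had one close by, because another start was nearer. At mrpl-18 a final summit (chrIII:8144563-8145197, signal 191.5, 125.2 and 63.7 in replicates 1 and 2) was 234 bp upstream of the gene and 152 bp from C14B9.8. At mrpl-45 a final summit (chrIII:1202135-1202570, signal 108.6, 63.4 and 37.9 in replicates 1 and 2) was 345 bp upstream and 193 bp from Y119D3B.12. If every start within 500 bp of a summit counted, mrps-35, mrpl-18 and mrpl-45 would be the mitochondrial ribosomal protein genes with a final region, and the 4 synthetases would be the same. Farther off, mrps-21, mrps-28 and mrps-18.C had final summits 1103, 1001 and 1325 bp upstream, assigned to jmjd-1.2, Y43F8C.7 and T14B4.3.

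The way the genes are arranged bears on these assignments. The nearest upstream protein-coding gene was counted if it lay at most 500 bp upstream or overlapped the start. It shared the strand of 10 of 31 synthetases (32.3%) and 29 of 70 mitochondrial ribosomal protein genes (41.4%), beside 20.5% of all protein-coding genes. Among these, 5 of the 10 synthetases and 9 of the 29 mitochondrial ribosomal protein genes had a candidate, beside 34.7% of all protein-coding genes so arranged. Each family had 1 such gene with a final region, beside 2.49% of all genes so arranged. In genes with such a neighbour on the opposite strand, candidates were assigned to 5 of 8 synthetases and 10 of 20 mitochondrial ribosomal protein genes, beside 36.2% of all such genes. Where no gene lay that close, 10 of 13 synthetases and 12 of 21 mitochondrial ribosomal protein genes had a candidate, beside 40.1% of all such genes. No member is on chromosome X, which holds 13.7% of all protein-coding genes. Of the 4 final synthetase regions 3 were on chromosome IV, which has 8 of the 31 synthetase genes. Chromosome III, with 22 mitochondrial ribosomal protein and 6 synthetase genes, had 12 of the mitochondrial ribosomal protein genes and 3 of the synthetases with a candidate, and 0 with a final region. Over all chromosomes, 38.4% of protein-coding genes had a candidate and 3.50% a final region. These shares were not counted per chromosome, so no concentration of members can be read from the counts.

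No region of any strength was assigned to 11 synthetase genes: dars-1, fars-1, gars-1, iars-1, iars-2, lars-2, pars-2, qars-1, rars-1, sars-1 and vars-1. The same held for 39 mitochondrial ribosomal protein genes, 23 of the large and 16 of the small subunit. A candidate was thus assigned to 64.5% of the synthetases and 44.3% of the mitochondrial ribosomal protein genes, beside 38.4% of all protein-coding genes. The body of fars-1 still held a final region, the one assigned to mrpl-23. Several regions were assigned to 4 synthetases (aars-1, fars-2, tars-1 and wars-1) and to 5 genes of the mitochondrial ribosome, among them mrpl-28 and mrpl-39 with 3 each. None of these 9 genes had a final region.

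Related parts of the translation and mitochondrial machinery were counted in the same way, beside 3.50% of all protein-coding genes with a final region. Each list was made by symbol pattern, so it can miss genes named otherwise and can hold genes that are not subunits. Translation factors of the cytosol had a final region at 5 of 41 genes (12.2%): eif-3.I (signal 313.0), eif-3.E (282.5), eif-3.C (184.8) and eif-3.B (170.1), which encode subunits of the initiation factor that brings the small ribosomal subunit to the messenger RNA, and ife-4 (106.8), a cap-binding protein. The eif-3.I summit lay 2039 bp downstream of the gene's start, so its assignment is uncertain. Those of eif-3.E, eif-3.C, eif-3.B and ife-4 lay upstream, within 500 bp of the start. Of 79 cytosolic ribosomal protein genes 7 had a final region (8.86%), with signals of 133.3 at rps-1 to 364.9 at rps-24. For the respiratory chain and ATP synthase, nuclear genes named nuo-, cox- plus a number, sdh, cyc-, ucr-, isp-1 and atp- plus a number were taken. Of these 39 genes 4 had a final region (10.3%): cox-5B, cox-6A, cyc-1 and nuo-2, with signals of 98.3 to 147.3. Of 15 mitochondrial import genes 1 had one, tomm-20 (152.4), a receptor of the outer membrane. Of 5 mitochondrial translation factor genes found by symbol, gfm-1, an elongation factor, had one (145.7). The strongest summits at rps-24 and cox-6A also lay more than 500 bp from the start, both upstream. The intervals of all these lists overlap those of both families.

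**Figure D4:**
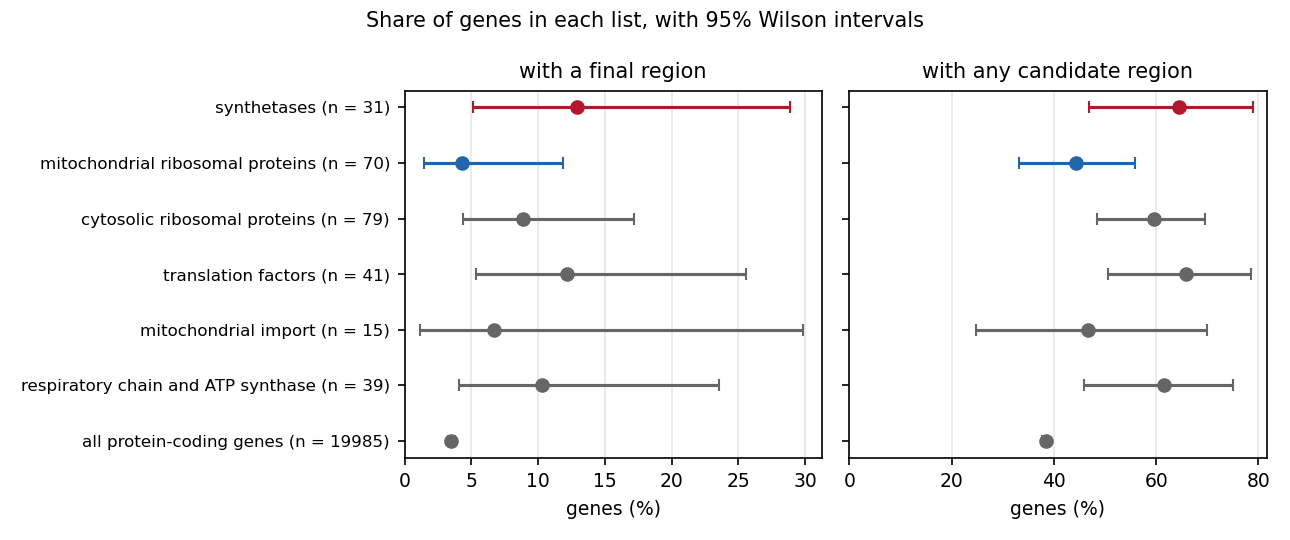
Share of the genes of each list with a final region (left) and with any candidate region (right), in percent, with 95% Wilson intervals for counting error; the number of genes is beside each name. Synthetases (12.9%) and mitochondrial ribosomal proteins (4.29%) have overlapping intervals for final regions, and all protein-coding genes stand at 3.50%.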

How the data were processed

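Anti-GFP ChIP-seq peak lists of 2 biological replicates were used. The authors deposited, per the file headers and metadata texts, a loose candidate list for each replicate and for the pooled replicates, and a final list filtered by the irreproducible discovery rate (IDR). Signal values are the deposited signal column of the format, and the deposited −log10 q values were not used for ranking. The lists derive from the alignments and a further file whose kind the metadata do not state; aligner, peak caller, IDR threshold and depth are not given. Only the ce11 lists were used, since the reference, WBcel235 with Ensembl release 115, is that build; the ce10 lists were not analysed here.

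Peaks overlapping by at least 1 bp were merged and represented by the strongest. A pooled region was called final if it overlapped a final peak by at least 1 bp, and its replicate rank is that of the strongest overlapping peak. Word matches on either strand were taken from 151-bp windows, and overlapping matches were counted. Python 3.11.15 and SciPy 1.17.1 were used. With 1 group and 2 replicates no comparison between groups was possible, and no test was made over genes or regions. Merging and assignment were tested on simulated data. The simulated summits lay near genes with no other protein-coding start close by, so assignment between close neighbours was not covered. Members, lists and words were chosen with earlier results of these data known. Named genes are members with a final region, members among the strongest peaks of either replicate, and in each family the 5 strongest of the rest; others were named after their values were seen. Alternatives covered assignment distance, gene starts, merging, overlap, thresholds, short RNA genes and single replicates.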

Additional observations from a re-analysis of the deposited data

How the results depend on the processing

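The 4 synthetases with a final region were the same genes under 11 of the 12 alternatives, and 3 of them passed in the stronger 50% of the final list. Several of these alternatives could not have removed any of the 4. Their summits lay 23 to 371 bp from the start, inside every distance used. None was tied or near a short RNA gene, and their symbols end in a number. Mitochondrial ribosomal protein genes with one numbered 2 to 4. Leaving out either replicate, with the 830 strongest peaks of the other in place of the final list, gave 4 synthetases in both cases and 2 to 3 mitochondrial ribosomal protein genes; mrps-35 was lost without replicate 1. Without regions at short RNA genes, mrpl-23 was lost. Genes with any candidate numbered 18 to 23 (synthetases) and 34 to 40 (mitochondrial ribosomal proteins) in single replicates, whose lists are longer. Within 1000 bp, 13 synthetases had a candidate, and with every gene start within 500 bp, 11; fewer regions are counted in both. The median top signal of synthetases was 37.3 within 1000 bp, 61.4 with every start within 500 bp and 39.3 with all transcript starts. For mitochondrial ribosomal proteins it was 55.8, 59.0 and 46.8 under these settings, 46.8 without regions at short RNA genes, 45.8 with unmerged peaks, and, under alternatives chosen after seeing the data, 50.2 with symbols ending in the number and 46.8 without tied regions. The order of the medians thus turned round with every start within 500 bp; the cause was not tested. No paired analysis was possible because the series has 1 group. With 31 and 70 genes, the intervals of the families overlap, and depth is unknown.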
